A study of Homo sapiens with 9 samples.

Results

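The miRNAs encoded within the HOX gene clusters were followed through a trapping experiment on the 3'UTR of PD-L1. They were chosen by name as 6 mature miRNAs (hsa-miR-10a-5p, hsa-miR-10a-3p, hsa-miR-10b-5p, hsa-miR-196a-5p, hsa-miR-196b-5p and hsa-miR-615-3p, written below without the species prefix) of the 2652 names in the count table, and reads of loci with 1 name were summed. All 6 passed the filter on low counts, as did 408 names in total. The study used miTRAP (miRNA trapping by RNA affinity purification) to ask which miRNAs associate with the 3'UTR of PD-L1 in wild type, untreated ES-2 cells, an established ovarian cancer line. A bait RNA carrying MS2 loops is tethered to a resin through a protein that binds the loops, lysate is passed over it, and whatever the bait retains is eluted and sequenced. Small RNA was sequenced in 9 libraries, of which 3 were lysate (input), 3 came from a bait of the loops alone (MS2 control, or MS2 eluate) and 3 came from the bait with the PD-L1 3'UTR (3'UTR eluate). The study stated a much larger amount of the PD-L1 3'UTR bait than of the MS2 control bait, so bait sequence and bait amount cannot be told apart. Only miRNAs were counted, so no marker mRNA could be used to check the cell line. The study states at least biological triplicates for all its experiments, but nothing in the labels says that replicates came from separate cultures. The p-values therefore measure the spread between these libraries, which may be technical.

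HOX clusters encode homeobox transcription factors that set position along the body axis. Their miRNAs sit between or within the HOX genes and are known to repress HOX mRNAs among other targets. miR-10a and miR-10b form a seed family from the HOXB and HOXD clusters. miR-196a and miR-196b form another from the HOXB, HOXC and HOXA clusters, and miR-615 comes from the HOXC cluster. A miRNA is loaded into an Argonaute protein and recognises targets mainly through its seed, bases 2 to 8 from its 5′ end. A hairpin can yield a miRNA from each arm, here named 5p and 3p, and both can be loaded.

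The mature sequences are shown because the comparisons below turn on paralogs and on arms of 1 hairpin. RefSeq (GRCh38.p14) held 5 of the 6, printed 5′ to 3′ with the seed in capitals.
hsa-miR-10a-5p: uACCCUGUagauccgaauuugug
hsa-miR-10a-3p: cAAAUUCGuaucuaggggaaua
hsa-miR-196a-5p: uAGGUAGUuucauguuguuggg
hsa-miR-196b-5p: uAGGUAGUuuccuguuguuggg
hsa-miR-615-3p: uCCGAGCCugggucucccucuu

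The miR-196 paralogs shared the seed and differed at 1 of 22 bases, A12C (the base of miR-196a-5p first, counted from its 5′ end). The miR-10a hairpin yields miR-10a-5p at chr17:48579904-48579926 and miR-10a-3p at chr17:48579864-48579885, both on the reverse strand (GRCh38.p14). It lies within the span of HOXB3 and 1488 bases from HOXB4. The miR-10b hairpin lies at chr2:176150303-176150412 on the forward strand, 1138 bases from HOXD4 and in an intron of a HOXD3 transcript. miR-196a-5p has a copy at chr12:53991762-53991783 on the forward strand, between HOXC10 and HOXC9, and a copy at chr17:48632532-48632553 on the reverse strand, 6132 bases from HOXB9. miR-196b-5p lies at chr7:27169528-27169549 on the reverse strand, between HOXA9 and HOXA10 and 1042 bases from the latter. miR-615-3p lies at chr12:54034010-54034031 on the forward strand, in introns of HOXC5 and HOXC4. The miR-196a hairpins lay in introns of a HOXC6 transcript (chromosome 12) and a HOXB7 transcript (chromosome 17), and the miR-196b hairpin lay in an exon or intron of HOXA9 transcripts without a defined coding sequence and opposite the antisense gene HOXA10-AS. Exon and intron calls come from GENCODE on GRCh37, and its coordinates are not used.

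Input libraries held from 3794799 to 5983577 miRNA counts and trapped libraries from 672824 to 2236535, so trapped values carry more counting error. Abundance is given as CPM, counts scaled to 1000000 per library, after TMM scaling, which sets the typical miRNA level between libraries. Differences were tested by edgeR's quasi-likelihood test over all 408 miRNAs with Benjamini-Hochberg adjustment at a threshold of 0.05. Fold changes are log2 values with their standard error (SE). Scaling by library totals raised the median log2 fold change over the input from 0.04 to 0.60 for the 3'UTR eluate and from 0.02 to 0.65 for the MS2 eluate. For the 3'UTR against the MS2 eluate this median log2 fold change was 0.017 with TMM and -0.037 with library totals. Changes against the input are therefore relative to the other miRNAs. A lower CPM in an eluate is a smaller share of the miRNAs recovered with that bait, and not a lower level in the cells. A CPM in the lysate is an average over its cells and cannot separate molecules per cell from the number of cells that contain them.

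The HOX-cluster miRNAs covered a wide range of abundance in ES-2 cells. Together they took 4.73% ± 0.118 (SD, n = 3) of the input counts, and miR-10a-5p alone made up 80.3% ± 0.304 of that sum. miR-10a-5p ranked 5 and miR-10b-5p ranked 15 among the 1313 miRNAs detected in the input. miR-10a-3p ranked 97, miR-615-3p 110, miR-196b-5p 182 and miR-196a-5p 193. In the input the ranges of the last pair overlapped, at 62.1 CPM ± 12.3 for miR-196b-5p and 51.3 CPM ± 10.05 for miR-196a-5p. The summed share of library counts was 1.67% ± 0.026 in the MS2 eluate and 2.16% ± 0.157 in the 3'UTR eluate. Counts of different miRNAs also depend on how well each is ligated and amplified, so this order describes the libraries.

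**Figure D1:**
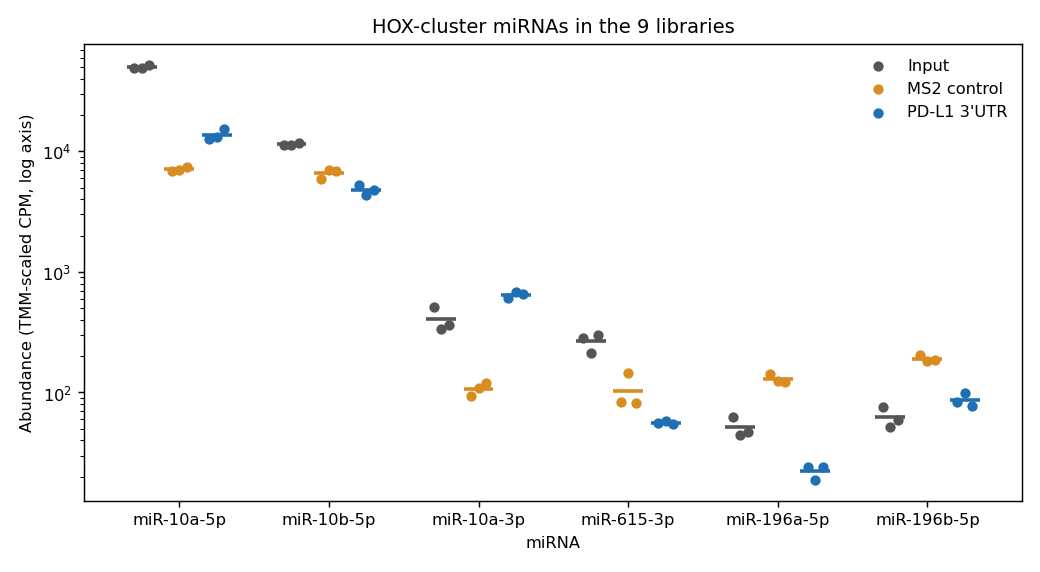
Abundance of the 6 HOX-cluster miRNAs in TMM-scaled CPM on a log axis, with 1 point for each library and a line at each group mean (n = 3 for each group). miR-10a-5p and miR-10b-5p are never below 4372 CPM in the 9 libraries, and the groups of every miRNA shown are separated in each pairwise comparison.

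The HOX-cluster miRNAs went in both directions in the 3'UTR eluate in comparison with the MS2 eluate. Both arms of miR-10a were higher, and miR-10b-5p, miR-196a-5p, miR-196b-5p and miR-615-3p were lower. All 6 passed the threshold, with 2 higher and 4 lower, and libraries did not overlap for any of them. Across all miRNAs tested, 60% passed, 31.4% as higher and 28.7% as lower, and 65.7% had libraries that did not overlap. A call was thus common among all miRNAs in this comparison. The median log2 fold change was -0.68 for the 6 and 0.02 for all 408.

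miR-10a-5p, the most abundant member, stood at 6901, 7004 and 7409 CPM in MS2 control replicates 1, 2 and 3 and at 12581, 13104 and 15231 CPM in the PD-L1 3'UTR replicates. Every 3'UTR library was above every MS2 control library, and its log2 fold change was 0.94 ± 0.11 (SE, edgeR adjusted p of 2.33e-05), or 1.92-fold. miR-10a-3p, the less abundant arm of the same hairpin, changed more. It had 93.7, 109 and 119 CPM in the MS2 eluate and 602, 688 and 651 CPM in the 3'UTR eluate, on 145 to 275 and 513 to 897 counts. This was a log2 fold change of 2.59 ± 0.20 (edgeR adjusted p of 1.17e-06), or 6.04-fold, and ranked 53 from the highest of the 408 miRNAs.

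miR-10b-5p went the other way. It stood at 5950, 7008 and 6911 CPM in the MS2 eluate and at 5224, 4372 and 4805 CPM in the 3'UTR eluate. A narrow gap separated the groups, with a log2 fold change of -0.46 ± 0.12 (edgeR adjusted p of 0.00500). miR-615-3p had 84.0, 146 and 81.7 CPM in the MS2 eluate and 55.9, 57.7 and 54.4 CPM in the 3'UTR eluate. MS2 control replicate 2 was high among its group. The log2 fold change of -0.90 ± 0.26 (edgeR adjusted p of 0.0116) was -0.58 without that library (adjusted p of 0.0453).

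Both miR-196 paralogs were lower in the 3'UTR eluate. miR-196a-5p fell from 143, 124 and 121 CPM in the MS2 eluate to 24.1, 18.8 and 23.9 CPM in the 3'UTR eluate, where it rested on 34, 14 and 33 counts. Its log2 fold change was -2.52 ± 0.24 (edgeR adjusted p of 5.34e-06), a 5.74-fold difference. miR-196b-5p fell from 203, 183 and 187 CPM to 82.8, 99.3 and 77.6 CPM, a log2 fold change of -1.15 ± 0.21 (edgeR adjusted p of 0.000674). All libraries of both paralogs were lower in the 3'UTR eluate than with the loops alone.

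**Figure D2:**
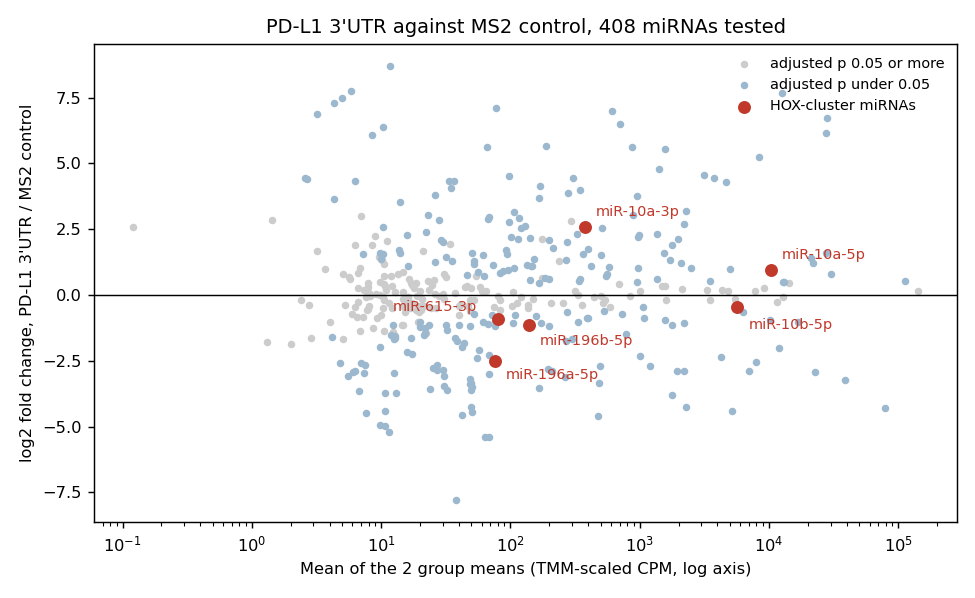
Log2 fold change of the PD-L1 3'UTR over the MS2 control against mean abundance (log axis) for the 408 miRNAs tested, with the 6 HOX-cluster miRNAs in red and other miRNAs in blue where the adjusted p was under 0.05 and grey otherwise. The members lie between -2.52 and 2.59, inside the spread of the other miRNAs, with the 2 arms of miR-10a above 0 and the rest below.

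Against the input, 5 of the 6 passed the threshold, with 1 higher and 4 lower. Of all miRNAs tested 66.4% passed, 34.1% as higher and 32.4% as lower, and 74.8% had libraries that did not overlap, as all 6 members had. The median log2 fold change was -1.22 for the members and 0.04 for all. miR-10a-5p had 48975, 49073 and 52347 CPM in input replicates 1, 2 and 3, above every trapped library. Its log2 fold change in the 3'UTR eluate was -1.88 ± 0.11 (edgeR adjusted p of 2.19e-07). miR-10b-5p had 11307, 11316 and 11832 CPM in the input and a log2 fold change of -1.26 ± 0.12 (edgeR adjusted p of 6.60e-06). miR-615-3p had 285, 212 and 301 CPM in the input and a log2 fold change of -2.25 ± 0.26 (edgeR adjusted p of 4.03e-05), a 4.75-fold difference. The abundant miR-10 guides and miR-615-3p were thus lower than in the lysate in 3 of 3 libraries each.

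miR-10a-3p was the single member above the input in the 3'UTR eluate by this test. It had 515, 335 and 366 CPM in the input, and its log2 fold change was 0.67 ± 0.19 (edgeR adjusted p of 0.00889). Leaving out input replicate 2 or 3, MS2 replicate 3 or 3'UTR replicate 2 ended the call, with log2 fold changes from 0.44 to 0.52, as did omitting the filter (0.41, adjusted p of 0.249). miR-196a-5p had 62.9, 44.5 and 46.6 CPM in the input and fell in the 3'UTR eluate by 1.19 on the log2 scale (SE 0.23, edgeR adjusted p of 0.00109). miR-196b-5p had 75.5, 51.2 and 59.5 CPM in the input, below each 3'UTR library by a small margin, with a log2 fold change of 0.47 ± 0.21 that did not pass the threshold (adjusted p of 0.0633). It passed with library totals (1.05, adjusted p of 0.00108), DESeq2 size factors and DESeq2, and was from 0.25 to 0.28 without input replicate 2 or 3, MS2 replicate 3 or 3'UTR replicate 2. Library totals moved other log2 fold changes over the input without ending a call, to -0.69 for miR-10b-5p, -0.62 for miR-196a-5p and 1.25 for miR-10a-3p.

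The MS2 control against the input shows what was recovered with no 3'UTR on the bait. All 6 members passed the threshold, with 2 higher and 4 lower, where 69.9% of all miRNAs passed, 32.8% as higher and 37% as lower, and all 6 had libraries that did not overlap (75.5% of all). The medians were -1.07 for the members and 0.02 for all. miR-10a-5p was 7.06-fold below the input, a log2 fold change of -2.82 ± 0.11 (edgeR adjusted p of 2.85e-08). miR-10b-5p was 1.73-fold lower, at -0.79 ± 0.12 (adjusted p of 0.000142), and with library totals it did not pass (-0.17, adjusted p of 0.177). miR-10a-3p fell on the log2 scale by 1.92 with SE 0.20 (edgeR adjusted p of 1.17e-05) and miR-615-3p by 1.35 (SE 0.25), which was -0.73 with library totals.

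Only the miR-196 paralogs among the 6 were higher in the MS2 eluate than in the lysate. miR-196a-5p rose by 1.33 ± 0.22 (edgeR adjusted p of 0.000329) and miR-196b-5p by 1.62 ± 0.21 (adjusted p of 5.92e-05), and both rises were larger with library totals (1.97 and 2.25). The 3 comparisons share libraries in pairs, so their values stand side by side and are not independent. For miR-196a-5p the order of levels was MS2 control, input and PD-L1 3'UTR. For miR-196b-5p the MS2 control was highest, and the PD-L1 3'UTR and input did not differ beyond the test's threshold. For miR-10a-5p the order was input, PD-L1 3'UTR and MS2 control, and for miR-10b-5p and miR-615-3p it was input, MS2 control and PD-L1 3'UTR.

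Ratios of 2 miRNAs within a library need no scaling between libraries. miR-10a-5p held 4.33, 4.34 and 4.42 counts for each count of miR-10b-5p in input replicates 1, 2 and 3. The ratio was 1.16, 0.999 and 1.07 in the MS2 eluate and 2.41, 3.00 and 3.17 in the 3'UTR eluate. The paralogs were thus nearly equal in the MS2 eluate, while miR-10a-5p led in the lysate and in the 3'UTR eluate. The mean log2 ratio was 2.13 ± 0.017 (SD, n = 3) in the input, 0.10 ± 0.11 in the MS2 eluate and 1.51 ± 0.21 in the 3'UTR eluate. The difference between the trapped groups was 1.40 ± 0.14 (SE), or 2.64-fold, and the log2 difference of the 3'UTR eluate from the input was -0.62 ± 0.12. The near-identical mature sequences of the pair leave the split of reads between them uncertain in part.

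miR-196a-5p held 0.833, 0.868 and 0.784 counts for each count of miR-196b-5p in the input and 0.704, 0.675 and 0.648 in the MS2 eluate. With the PD-L1 3'UTR it held 0.291, 0.189 and 0.308. miR-196a-5p was below its paralog in all 9 libraries, the ratio was lowest in the 3'UTR eluate, and no groups overlapped. The mean log2 ratio was -0.27 ± 0.074 (SD, n = 3), -0.57 ± 0.060 and -1.94 ± 0.37 in these 3 groups. Between the trapped groups the difference was -1.37 ± 0.22 (SE), or 2.59-fold, with 3'UTR replicate 2 lowest at 14 against 74 counts, and between the MS2 eluate and the input the log2 difference was -0.29 ± 0.05. These paralogs differ at 1 base, printed above, so here too the split of reads is uncertain in part.

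Both arms of the miR-10a hairpin can be compared in the same way. Of all miR-10a counts, the 3p arm took 1.04%, 0.678% and 0.695% in the input, 1.34%, 1.53% and 1.58% in the MS2 eluate and 4.57%, 4.99% and 4.10% in the 3'UTR eluate. The 3p share was highest in the 3'UTR libraries, and no groups overlapped. The mean log2 ratio of 5p to 3p was 6.97 ± 0.35 (SD, n = 3), 6.05 ± 0.13 and 4.39 ± 0.15, respectively. The log2 difference of the 3'UTR from the MS2 eluate was -1.66 ± 0.11 (SE), or 3.16-fold, and from the input it was -2.58 ± 0.22. In all 9 comparisons of these 3 ratios the libraries did not overlap. Each gave a two-sided exact permutation p of 0.1 (also 0.1 after Benjamini-Hochberg adjustment over the 9), the smallest that 3 against 3 libraries can give. The share among other pairs of miRNAs was not computed. For single miRNAs, libraries did not overlap in 65.7% (3'UTR against MS2), 74.8% (3'UTR against input) and 75.5% (MS2 against input) of those tested. The 9 comparisons share libraries, and miR-10a-5p enters more than 1 ratio, so they are not independent.

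**Figure D3:**
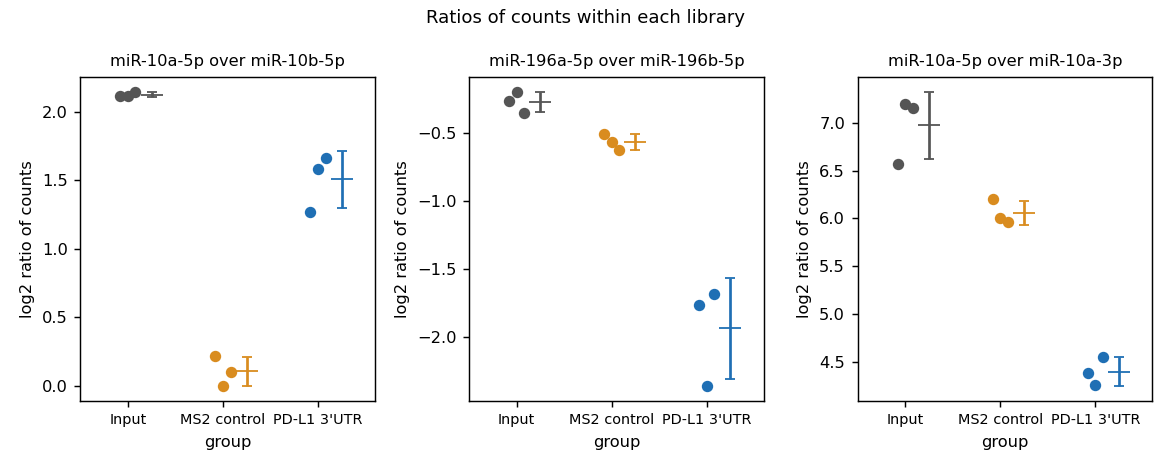
Log2 ratios of counts within each library for miR-10a-5p over miR-10b-5p, miR-196a-5p over miR-196b-5p and miR-10a-5p over miR-10a-3p, with 1 point for each library and the mean ± SD beside them (n = 3). The vertical axes differ between panels and do not start at 0. The PD-L1 3'UTR group has the lowest mean for the miR-196 paralogs, -1.94, and for the miR-10a arms, 4.39, and lies between the other groups for the miR-10 paralogs.

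miR-196a-5p is the one member with several loci. The copy on chromosome 12 held from 50% to 73.5% of its reads in a library and 57.6% over all libraries, and the copy on chromosome 17 held the rest. The mature sequence is the same at both, so these reads cannot tell which locus they came from. Tested as separate rows, the log2 fold changes over the MS2 control were -2.44 for the copy on chromosome 12 and -2.86 for that on chromosome 17, and both passed the threshold.

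The partner arms of these hairpins were scarce. Of 5 listed, only miR-10b-3p passed the filter, and it passed the threshold in none of the 3 comparisons. Its mean of 3 libraries was 30.4 CPM (SD 6.15) for the input, 30.0 CPM (SD 11.4) for the MS2 eluate and 30.7 CPM (SD 5.04) for the 3'UTR eluate. Its log2 fold change over the MS2 control was 0.06 ± 0.32 (edgeR adjusted p of 0.896), against 2.59 for miR-10a-3p. miR-615-5p had 20, 20 and 41 counts in the input, 15, 4 and 2 in the MS2 eluate and 0 in each 3'UTR library. Against a floor of 3 counts per library, the 3'UTR eluate was at least 2.55-fold lower than the lysate with TMM scaling. This bound depends on the scaling and is smaller with library totals, where the input mean was 5.36 CPM in place of 7.08 CPM. Floors cover counting error only. miR-196b-3p held 13, 9 and 4 counts in the 3 groups, miR-196a-3p 5, 0 and 2, and miR-196a-1-3p none, so no difference was detectable at this depth.

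Outside the HOX clusters, miR-99a-5p, miR-99b-5p and miR-100-5p resemble miR-10a-5p in sequence with another seed, ACCCGUA. miR-100-5p shares a run of 11 bases with it, from base 7 to base 17 of miR-10a-5p, and the sequences of the relatives are shown for comparison.
miR-99a-5p: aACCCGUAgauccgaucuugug
miR-99b-5p: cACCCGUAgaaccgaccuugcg
miR-100-5p: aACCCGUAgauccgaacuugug

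Over the MS2 control, 1 of these 3 passed the threshold, miR-100-5p at 0.53 ± 0.09 (edgeR adjusted p of 0.000500). miR-99a-5p had 0.44 ± 0.18 (adjusted p of 0.0546, or 0.0178 to 0.166 under other settings) and miR-99b-5p -0.15 ± 0.16 (adjusted p of 0.451). Against the input, miR-99a-5p and miR-99b-5p were higher in the 3'UTR eluate, at 1.28 ± 0.18 and 1.11 ± 0.17, whereas miR-10a-5p had -1.88. Both were also higher than the input in the MS2 eluate, at 0.84 ± 0.18 and 1.26 ± 0.17, where miR-10a-5p had -2.82. Their rise over the lysate was thus present with the loops alone. miR-100-5p had -0.38 ± 0.09 against the input with TMM and 0.19 with library totals.

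Each member was matched to the 2 tested miRNAs with the most similar pattern over the 9 libraries, by the root mean square difference of centred log2 CPM. For miR-10a-5p these were miR-361-5p (0.16) and miR-107 (0.21), against a median of 1.46 over all other miRNAs. For miR-10a-3p they were miR-146a-5p (0.27) and miR-181b-5p (0.30), and for miR-10b-5p miR-941 (0.09) and miR-503-5p (0.21). miR-196b-5p was closest to miR-1307-3p (0.09) and miR-320c (0.17), and miR-615-3p to miR-3909 (0.34) and let-7g-5p (0.38). For miR-196a-5p they were miR-98-5p (0.17), a let-7 family member, and miR-424-3p (0.22). Over the MS2 control, miR-98-5p had a log2 fold change of -2.33 ± 0.19 (SE) and miR-424-3p of -2.68 ± 0.14.

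The miR-196 seed letters AGGUAGU also occur in let-7 miRNAs, shifted by 1 base. Among the 371 tested miRNAs with a sequence in RefSeq, 8 others than miR-196a-5p and miR-196b-5p held these letters, at bases 3 to 9 in each, and all were let-7 guides or miR-98-5p. Over the MS2 control, 8 of the 8 were lower, with log2 fold changes from -4.31 to -0.63 and a median of -2.72, where 28.7% of all miRNAs tested were lower. For the 3'UTR eluate against the input, 7 of the 8 were lower, with log2 fold changes from -3.41 to 0.08 and a median of -1.58, where 32.4% of all were lower. In that comparison miR-196a-5p had -1.19 and miR-196b-5p had 0.47, which did not pass the threshold. In the MS2 control against the input, 6 were higher and 1 was lower, with a median of 1.43, where 32.8% of all were higher and 37% lower. The 8 were found by sequence after their values were known and belong to the let-7 family, so they are not independent and these counts describe them only. Another let-7 guide, let-7e-5p, was not among the 8, yet it came next after miR-424-3p in pattern likeness to miR-196a-5p (0.24). Whether the shared letters matter was not tested. No tested miRNA other than the members themselves held the seed letters of miR-10a-5p, miR-10a-3p or miR-615-3p among those with a sequence.

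Matches to the seeds were sought on the sense strand of the 3'UTR annotated for CD274, which encodes PD-L1 (transcript CD274-202, 2692 bases, GENCODE on GRCh37). The extent of the bait within it was not analysed here. For miR-10a-5p the letters searched were CAGGGT for bases 2 to 7 and ACAGGGT for bases 2 to 8, and a single match of 6 bases was found, from base 1930 to 1935 of the 3'UTR. For miR-10a-3p, GAATTT was found from base 1723 to 1728 and CGAATTT was not. No match of 7 bases, including 6 bases followed by A, was found for any of the 5 members with a sequence. For the miR-196 paralogs CTACCT, and for miR-615-3p GCTCGG, were not present. Among 4581 annotated 3'UTRs of at least this length, cut to it, CAGGGT occurred in 54.5%, GAATTT in 72.9%, CTACCT in 44.7% and GCTCGG in 11.1%. The 7-base letters occurred in 22.2% (ACAGGGT), 3.5% (CGAATTT), 11.5% (ACTACCT) and 3.6% (GGCTCGG). These matches are a description of the letters and not of binding.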

How the data were processed

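The authors deposited raw counts of reads for each locus of a mature miRNA. The submitters' processing notes name cutadapt 1.18, Bowtie2 2.2.6, featureCounts 1.6.3 and hg38, and the study's methods name miRBase as annotation. Sample titles gave group and replicate, and table columns were mapped through the labels. The members and lists were chosen with earlier results of these data known. Counts were summed over the loci of a name (2883 rows, 2652 names). No library was counted as a duplicate, since all replicate pairs differed beyond sampling noise.

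edgeR 4.0.16 (R 4.3.3) fitted 3 group means to all 9 libraries after filterByExpr (408 miRNAs) and TMM (factors from 0.742 to 1.25), with glmQLFTest, two-sided. The SE is the log2 fold change over the root of F. Within-library ratios used a pseudocount of 0.5 and an exact permutation test. Pattern likeness used log2 CPM with a prior count of 2. On simulated data for the 3'UTR against the MS2 eluate (408 miRNAs, a log2 change of 2 in 200), 95.6% of the changes were recovered and 3.23% of calls were false. The simulation gave every miRNA the same spread and balanced rises with falls. It therefore does not give the recovery of smaller changes or the error rate of the calls reported here. Named miRNAs were the 6 members, 5 partner arms, 3 relatives of miR-10 and the 2 closest in pattern to each member. Beyond these, let-7e-5p and the let-7 family members holding the miR-196 seed letters were described. Alternatives were DESeq2 size factors, library totals, DESeq2 1.42.0, no filter, a minimum mean of 10 CPM, a fit to the compared groups alone, the replicate number as a block, separate loci, pseudocounts of 1 and 5, and leaving out each library.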

Additional observations from a re-analysis of the deposited data

How the results depend on the processing

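Of 309 refits of the 18 member log2 fold changes, 300 kept direction and side of the threshold, 6 lost the call, 3 gained it and 0 changed sign. The 81 alternatives for the 9 ratios kept their sign, though their p cannot pass the threshold. miR-10a-3p against the input with the PD-L1 3'UTR was 0.41 with no filter and from 0.44 to 0.75 with a library left out. miR-196b-5p in that comparison was 0.56 with DESeq2 size factors, 1.05 with library totals and 0.552 with DESeq2. Members called higher there were accordingly 2 in each of these 3 and 0 with no filter, and from 0 to 1 with a library left out. miR-10b-5p in the MS2 control against the input was -0.17 with library totals. All miRNAs called lower with the 3'UTR against the input were 201 with no filter (132 with the filter and TMM), and with library totals 192 were higher and 89 lower (139 and 132 with TMM and the filter). In the MS2 control against the input these were 199 and 104 (134 and 151). miR-100-5p against the input with the 3'UTR turned to 0.19 with library totals. miR-10b-3p, never past the threshold, changed the sign of its log2 fold change. Over the MS2 control it was -0.0654 with at least 10 CPM, -0.0353 with separate loci and from -0.112 to 0.371 with a library left out. Against the input with the 3'UTR it was -0.243 with no filter, -0.0365 with at least 10 CPM, -0.0858 with only the groups compared, -0.0457 with separate loci and from -0.213 to 0.0512 with a library left out. In the MS2 control against the input it was 0.0387 with DESeq2 size factors, 0.0354 with DESeq2, 0.589 with library totals, 0.0289 with at least 10 CPM and from -0.547 to 0.120 with a library left out. The causes were not tested. With the replicate block, 243 miRNAs were called over the MS2 control (245 without) and no member's call changed. Same-numbered libraries deviated together with r from -0.18 to 0.13, which gave no sign of pairing but cannot exclude a shared preparation. In each group replicates 2 and 3 were the most alike, with r of log2 CPM of 0.995 (input), 0.974 (MS2) and 0.977 (3'UTR). miR-196a-5p rests on 81 counts in the 3'UTR group, which limits its precision.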
